A study of Mus musculus with 12 samples.

Results

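The comparison described here asked whether C16 altered a gene's RNA level differently in Tg26 mice than in wild-type (WT) mice. For each gene, the log2 change with C16 in Tg26 mice minus the log2 change with C16 in WT mice, called the interaction below, was computed over all 12 of the 12 bulk RNA-seq libraries of mouse kidney outer cortex. A group of 3 mice stood for each of the 4 combinations: WT and Tg26 mice left without C16, and WT and Tg26 mice treated with it. All were FVB/N mice, killed at 12 weeks of age. Tg26 mice are hemizygous for an HIV-1 transgene that carries the regulatory and accessory genes of the virus, and they develop a nephropathy. C16-treated mice received 10 µg/kg of C16 in DMSO-PBS into the peritoneum, 3 times each week from week 6 to week 12. Whether the mice without C16 received the vehicle was not given in the sources used here. Each library held the whole outer cortex of 1 mouse, so the transgene, the drug and the mix of cells all entered one measurement.

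C16 is a small inhibitor of protein kinase R (PKR), which Eif2ak2 encodes. PKR is switched on by double-stranded RNA, phosphorylates the translation factor eIF2alpha and feeds into NF-kB and interferon signaling. An injured proximal tubule loses its transporters and mitochondrial enzymes and takes on injury genes, while macrophages and matrix-producing fibroblasts accumulate around it. A negative interaction can come from a lower level with C16 in Tg26 mice, from a higher level with C16 in WT mice, or from both. The C16 effect in each genotype, or the level in each group, is therefore given beside the interaction for many genes and lists, but not for all. Where both are left out, the source of the interaction cannot be read from its value.

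The libraries held 19877877 to 27000388 counts, and TMM scaling factors ran from 0.901 to 1.22. Tg26 replicate 1 had the highest factor, and in the fit that weights libraries by quality it had the lowest weight of the 12. Levels are given as CPM, counts relative to the TMM-scaled size of the library. Levels summed over several genes are relative to the library size without TMM scaling. Proximal tubule genes such as Slc34a1 (3067 to 8473 CPM) and Cubn (269 to 652 CPM) marked the tissue as kidney cortex. Genes of the Y chromosome summed to over 100 CPM in all 12 libraries. A circadian clock score differed between mice of 1 group, from -3.43 to -0.48 in Tg26 mice and from -4.08 to -1.37 in WT mice. The part of the sampling hour in the results was not tested, apart from a fit with that score as a covariate.

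No gene passed the test of the interaction. With edgeR's quasi-likelihood test, 0 of 16094 genes (0%) had a Benjamini-Hochberg adjusted p under 0.05, and the smallest adjusted p, 0.218, was shared by 51 genes. Before adjustment, 2047 genes (12.7%) had p under 0.05, of which 768 (4.77%) had a positive and 1279 (7.95%) a negative interaction. When library sizes were not rescaled, the split was 187 positive against 2375 negative, since the median interaction over all genes then sat at -0.19 rather than 0.01. DESeq2 called 158 genes, 26 positive and 132 negative, and limma-voom called 2. Those 2 were Sytl2 and Gm10401, a predicted gene that falls outside the naming rule. Gm10401 had 0 counts in each WT mouse, 16, 11 and 12 in C16-treated WT mice, 21, 16 and 11 in Tg26 mice and 7, 5 and 2 in C16-treated Tg26 mice. The count of 768 moved to 494 without WT replicate 2, 1205 without Tg26 replicate 2 and 1275 without Tg26 replicate 3. That of 1279 moved to 871 without Tg26 replicate 1 and 1617 without Tg26 replicate 3.

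The precision of the interaction bounded what could be seen. Its median standard error over all genes was 0.26 on the log2 scale, against 0.18 for C16 in either genotype alone. The median 95% interval reached 0.56 to each side of the interaction, against 0.39 for C16 in Tg26 mice and 0.40 in WT mice. With edgeR, C16 called 122 genes higher (0.758%) and 428 lower (2.66%) in Tg26 mice, and 0 genes (0%) in WT mice, where 1199 genes had an unadjusted p under 0.05. In WT mice DESeq2 called 34 genes and limma-voom 43. A call in one genotype and none in the other does not show a difference between them, and the interaction is the test of that difference. The count in Tg26 mice also rested on single libraries. It was 0 without C16-treated Tg26 replicate 1 or without replicate 2, 100 without replicate 3, 10 without Tg26 replicate 1, 1469 without Tg26 replicate 2 and 1010 without Tg26 replicate 3. Because the spread is shared by the 4 groups, leaving out WT libraries moved it too, to 67 without WT replicate 2, 343 without WT replicate 3, and 110, 100 and 251 without C16-treated WT replicates 1, 2 and 3.

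Across the 16094 genes the C16 effects in Tg26 and WT mice had the same sign in 9128 (56.72%), and Pearson's r between them was 0.20. Genes are not independent replicates, and the 2 effects share no library. The standard deviation of the effect over genes with a mean of at least 1 CPM was 0.47 in Tg26 mice and 0.37 in WT mice on the log2 scale.

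**Figure D1:**
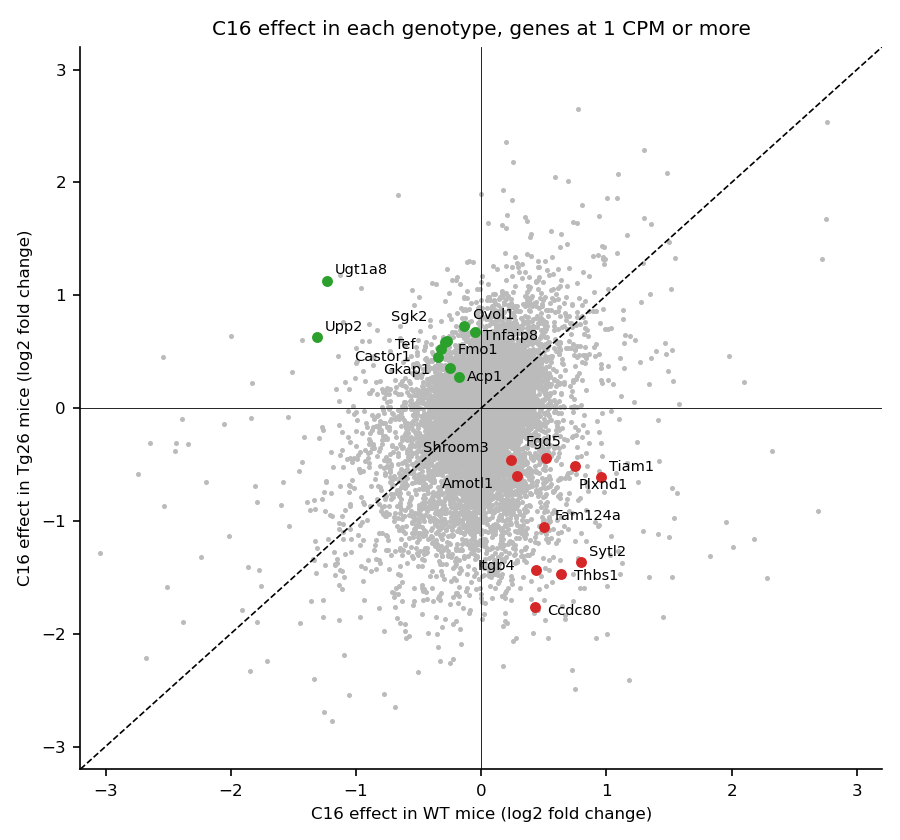
Each point is a gene with a mean of at least 1 CPM, placed by its log2 change with C16 in WT mice (x axis) and in Tg26 mice (y axis); 24 of 13771 genes lie beyond the axes. On the dashed line the interaction is 0. The 10 named genes with a positive interaction (green) lie above it and left of the vertical axis, and the 10 with a negative interaction (red) lie below it and to the right.

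The shape behind the smallest p-values was nearly always the same. Of the 1279 genes with a negative interaction at unadjusted p under 0.05, untreated Tg26 mice had the highest group mean in 1232 (96.33%), against 36.43% of all genes. WT mice had the lowest in 932 (72.87%), against 25.26% of all genes. Of the 768 with a positive interaction, untreated Tg26 mice had the lowest mean in 675 (87.89%), against 36.67% of all genes. WT mice had the highest in 594 (77.34%), against 27.54% of all genes. A negative interaction by construction favors a high level in Tg26 mice or in C16-treated WT mice. It equally favors a low level in WT mice or in C16-treated Tg26 mice, and a positive interaction favors the reverse. C16-treated WT mice were highest in only 44 of the 1279 (3.44%). All 3 untreated Tg26 mice lay above the other 9 mice in 10.6% of all genes tested and below them in 6.5%.

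The genes named first are the 10 of each direction with the smallest p. They are values, not calls: edgeR's adjusted p ran from 0.218 to 0.243, DESeq2 called each of the 20, and genes picked by their p have interactions that are likely too large. In 19 of the 20, the 3 untreated Tg26 mice lay outside the range of the other 9, and Upp2 was the exception. Picking genes by p favors such a gap, since the untreated Tg26 mice enter the interaction. All 20 kept their sign under every alternative that tested them. In CPM, too, the difference of the 2 C16 effects had the same sign as the log2 interaction in each. These checks, like the DESeq2 calls, reuse the libraries that picked the genes and give no independent support.

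**Figure D2:**
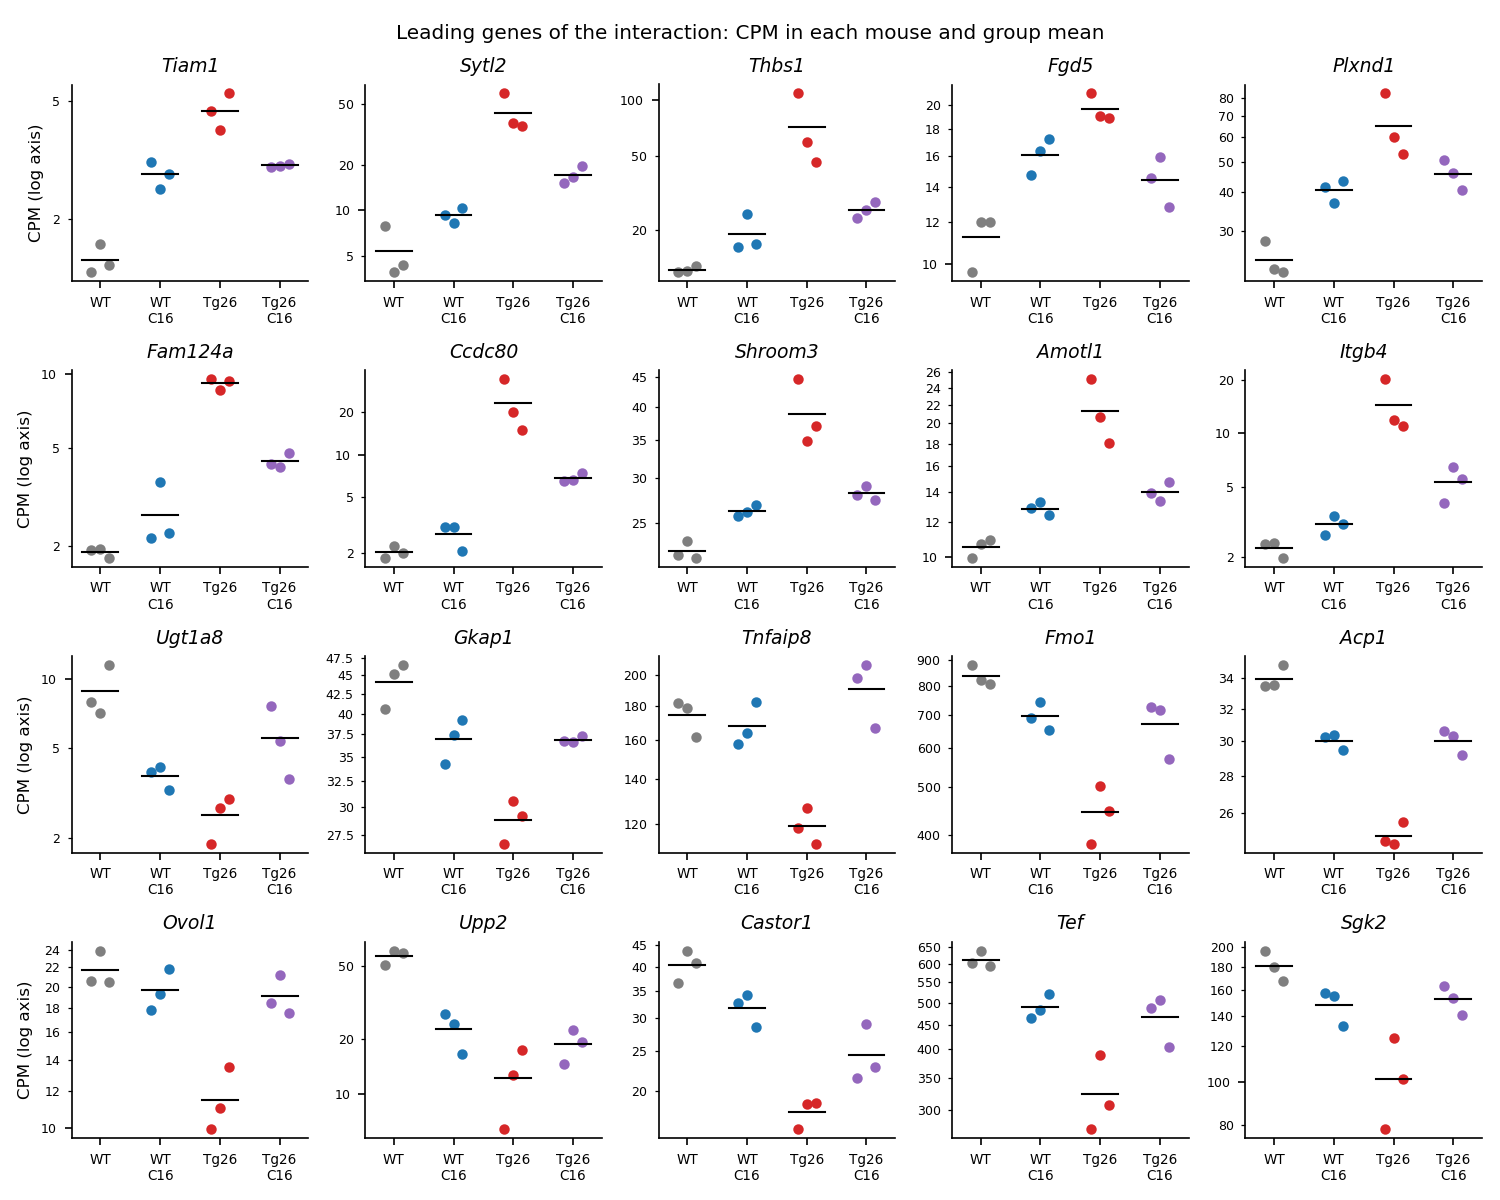
Level of the 20 leading genes in CPM (log axis) in each mouse, with the group mean as a line; the upper 2 rows hold genes with a negative interaction and the lower 2 rows genes with a positive one. In the upper rows the mean of WT mice is lowest, that of C16-treated WT mice lies above it, and untreated Tg26 mice are highest, as for Thbs1 at 46.2 to 108 CPM; in the lower rows, untreated Tg26 mice are lowest.

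Among the genes with a negative interaction, Thbs1, Ccdc80 and Itgb4 act in matrix and adhesion, and Plxnd1 and Fgd5 in vessels. Thbs1 encodes thrombospondin-1, a matrix protein that activates latent TGF-beta, and lies at chr2:118111876-118127133 of mm10. Thbs1 measured 11.9, 12.0 and 12.9 CPM in WT, 16.2, 24.5 and 16.8 in C16-treated WT, 108, 59.1 and 46.2 in Tg26 and 23.3, 25.5 and 28.2 in C16-treated Tg26 mice. The untreated Tg26 mice were highest and did not overlap any other group, and the C16-treated WT mice all lay above the WT mice. Its C16 effect was 0.64 in WT mice and -1.47 in Tg26 mice on the log2 scale. The interaction was -2.11 (SE 0.38, 95% interval -2.94 to -1.29), and -1.68 without Tg26 replicate 1.

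Ccdc80, a secreted protein that binds matrix (chr16:45093402-45128077), gave the largest negative value of the 10. Ccdc80 measured 1.83, 2.24 and 1.98 CPM in WT, 3.03, 3.06 and 2.06 in C16-treated WT, 34.5, 20.1 and 14.9 in Tg26 and 6.46, 6.62 and 7.45 in C16-treated Tg26 mice. The interaction was -2.18 (SE 0.40, 95% interval -3.06 to -1.31), from -1.76 in Tg26 and 0.43 in WT mice. Tg26 replicate 1 was the highest of all mice for it, and without that library the interaction was -1.78. Itgb4 encodes the integrin subunit of hemidesmosomes (chr11:115974709-116008412). Itgb4 measured 2.38, 2.41 and 1.98 CPM in WT, 2.65, 3.43 and 3.08 in C16-treated WT, 20.3, 12.0 and 11.1 in Tg26 and 4.03, 6.46 and 5.52 in C16-treated Tg26 mice. Its interaction was -1.87 (SE 0.36, 95% interval -2.66 to -1.08), and no mouse of another group reached the lowest Tg26 mouse.

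Plxnd1 encodes a receptor for semaphorins that guides growing vessels (chr6:115954811-115995005). Plxnd1 measured 27.9, 22.7 and 22.2 CPM in WT, 41.5, 36.9 and 43.5 in C16-treated WT, 83.0, 60.3 and 53 in Tg26 and 50.6, 46.2 and 40.6 in C16-treated Tg26 mice. Here the 2 C16 effects were of opposite sign, -0.51 in Tg26 mice and 0.75 in WT mice, which gave -1.26 (SE 0.23, 95% interval -1.75 to -0.77). Fgd5, an exchange factor for Cdc42 found in endothelium (chr6:91978878-92076004), had the same shape. Fgd5 measured 9.66, 12.0 and 12.0 CPM in WT, 14.7, 16.4 and 17.2 in C16-treated WT, 21, 19.1 and 18.9 in Tg26 and 14.6, 15.9 and 12.8 in C16-treated Tg26 mice. The ranges of Tg26 and C16-treated Tg26 mice did not overlap, nor did those of WT and C16-treated WT mice, and the interaction was -0.96 (SE 0.17, 95% interval -1.34 to -0.59).

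Tiam1 encodes an exchange factor for Rac1 (chr16:89787111-90143769) and was the named gene with the smallest p among those with a negative interaction. Tiam1 measured 1.33, 1.65 and 1.4 CPM in WT, 3.12, 2.53 and 2.85 in C16-treated WT, 4.62, 3.99 and 5.30 in Tg26 and 3.01, 3.02 and 3.07 in C16-treated Tg26 mice. The C16-treated mice of both genotypes overlapped, while the untreated groups stood on either side of them. The interaction was -1.57 (SE 0.26, 95% interval -2.13 to -1.0). Sytl2, a Rab27 effector of vesicle traffic (chr7:90302252-90410719), was the only one of the 20 that limma-voom also called, with an adjusted p of 0.0224. Sytl2 measured 7.87, 3.93 and 4.38 CPM in WT, 9.41, 8.22 and 10.4 in C16-treated WT, 59.0, 37.5 and 35.8 in Tg26 and 15.1, 16.7 and 19.6 in C16-treated Tg26 mice. Its interaction was -2.16 (SE 0.36, 95% interval -2.95 to -1.37).

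Shroom3 and Amotl1 shape the epithelial cytoskeleton and its junctions, Shroom3 by constricting the cell apex and Amotl1 by binding the YAP coactivator. Shroom3 (chr5:92683435-92965318) measured 34.8 to 44.7 CPM in Tg26 mice and 21.7 to 29.1 CPM in the other 9, with an interaction of -0.70 (SE 0.13, 95% interval -0.99 to -0.41). Amotl1 (chr9:14541966-14645056) measured 18.1 to 25.1 CPM in Tg26 mice and 9.98 to 14.8 CPM in the other 9, with an interaction of -0.89 (SE 0.17, 95% interval -1.26 to -0.51). Fam124a (chr14:62555737-62608486) measured 8.60 to 9.51 CPM in Tg26 mice and 1.78 to 4.78 CPM in the others, and its interaction was -1.55 (SE 0.28, 95% interval -2.17 to -0.93).

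Among the genes with a positive interaction, Upp2, Ugt1a8 and Fmo1 are metabolic enzymes. Upp2, a uridine phosphorylase that breaks down uridine (chr2:58567298-58792971), had a large C16 effect in WT mice. Upp2 measured 50.7, 60.7 and 58.6 CPM in WT, 27.5, 24.2 and 16.6 in C16-treated WT, 6.42, 12.7 and 17.4 in Tg26 and 14.6, 22.5 and 19.3 in C16-treated Tg26 mice. The 3 WT mice were highest and apart from all others, while the C16-treated Tg26 mice overlapped both the Tg26 and the C16-treated WT mice. The interaction of 1.94 (SE 0.42, 95% interval 1.02 to 2.86) thus combined -1.31 in WT mice with 0.63 in Tg26 mice. Ugt1a8 encodes a glucuronosyltransferase (chr1:88087813-88219004) whose last exons are shared by the whole Ugt1a cluster, so the split of reads between its members is uncertain. Ugt1a8 measured 7.96, 7.09 and 11.6 CPM in WT, 3.91, 4.11 and 3.27 in C16-treated WT, 1.89, 2.72 and 2.98 in Tg26 and 7.64, 5.34 and 3.63 in C16-treated Tg26 mice. Its interaction was 2.37 (SE 0.41, 95% interval 1.48 to 3.25).

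Fmo1 encodes a flavin monooxygenase that oxidizes drugs and amines (chr1:162829561-162866610). Fmo1 measured 881, 822 and 806 CPM in WT, 689, 741 and 652 in C16-treated WT, 385, 502 and 448 in Tg26 and 724, 715 and 571 in C16-treated Tg26 mice. All 3 Tg26 mice were below the other 9, and the interaction was 0.86 (SE 0.18, 95% interval 0.47 to 1.25). Sgk2, a kinase related to the aldosterone-induced SGK1 (chr2:162987330-163014127), measured 78.3 to 125 CPM in Tg26 mice and 133 to 196 CPM in the other 9, with 0.88 (SE 0.21, 95% interval 0.42 to 1.34). Castor1, an arginine sensor that restrains mTORC1 (chr11:4218225-4222409), measured 16.1 to 18.7 CPM in Tg26 mice and 21.5 to 43.7 CPM in the rest, with 0.80 (SE 0.18, 95% interval 0.42 to 1.19).

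Tef encodes a PAR-domain transcription factor whose level follows the circadian clock (chr15:81802421-81826863). Tef measured 603, 639.6 and 596 CPM in WT, 465, 483 and 521 in C16-treated WT, 274, 390.0 and 307 in Tg26 and 487, 506 and 404 in C16-treated Tg26 mice. The Tg26 mice were lowest without overlap, and the interaction was 0.85 (SE 0.19, 95% interval 0.43 to 1.27). With the clock score as a covariate it was 0.84. CLOCK and BMAL1 bind the E-box, CACGTG, and the windows before both Tef start sites in RefSeq (GRCm38.p6, plus strand, 250 bases before to 50 after the start) held it. They are shown because Tef was the only one of 11 leading genes matched to a promoter in RefSeq that held the motif, which 7.15% of 32851 such windows hold on either strand. The 11 genes had 15 windows, and a gene was counted if any of its windows held a motif. Counts of genes and shares of windows are therefore not in the same unit. The TEAD motif, GGAATG, and the AP-1 motif, TGANTCA, were searched in the same way. The first was held by Plxnd1 and Upp2, 2 of the 11 genes, and by 14.7% of all windows, and the second by Tiam1, 1 of the 11, and by 7.81% of all windows. The first Tef window lies at chr15:81802423-81802722 and the second at chr15:81811164-81811463, and the capitals mark the E-box.
Tef, first start: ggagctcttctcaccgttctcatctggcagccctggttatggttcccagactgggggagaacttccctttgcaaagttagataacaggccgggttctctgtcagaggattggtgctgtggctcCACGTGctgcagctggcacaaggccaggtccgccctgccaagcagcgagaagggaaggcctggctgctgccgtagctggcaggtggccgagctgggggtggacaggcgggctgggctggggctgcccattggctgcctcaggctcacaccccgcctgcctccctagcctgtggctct
Tef, second start: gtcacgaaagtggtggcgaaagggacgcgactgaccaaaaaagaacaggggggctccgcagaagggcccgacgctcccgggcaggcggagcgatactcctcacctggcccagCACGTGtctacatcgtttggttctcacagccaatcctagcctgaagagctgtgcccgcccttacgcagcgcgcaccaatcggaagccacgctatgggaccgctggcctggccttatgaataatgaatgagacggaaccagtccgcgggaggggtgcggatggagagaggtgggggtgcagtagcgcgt
A match is a run of letters and does not show binding. The clock list was of both signs: of 19 genes tested, Tef included, 11 were positive and 8 negative, and Tef was the only 1 with an unadjusted p under 0.05.

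A further 4 genes had the same shape. Ovol1, a zinc finger repressor of transcription in epithelia (chr19:5549136-5560646), measured 9.95 to 13.5 CPM in Tg26 mice and 17.6 to 23.9 CPM in the others, with 0.87 (SE 0.19, 95% interval 0.46 to 1.28). Tnfaip8, a regulator of cell death and phospholipid signaling (chr18:49979427-50107173), measured 112 to 127 CPM in Tg26 mice and 158 to 207 CPM in the others, with 0.73 (SE 0.15, 95% interval 0.41 to 1.05). Gkap1, an anchoring protein of cGMP-dependent kinase (chr13:58233346-58275699), gave 0.61 (SE 0.12, 95% interval 0.34 to 0.88). Acp1, a low molecular weight tyrosine phosphatase (chr12:30893326-30911589), gave 0.45 (SE 0.10, 95% interval 0.24 to 0.66), the smallest of the 20. Its 3 Tg26 mice measured 24.4 to 25.5 CPM and the other 9 mice 29.2 to 34.9 CPM.

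The gene of the drug's target did not show this shape. Eif2ak2 measured 14.7, 18.5 and 17.7 CPM in WT, 12.8, 12.7 and 15.5 in C16-treated WT, 20.6, 14.9 and 18 in Tg26 and 13.9, 17.5 and 15.6 in C16-treated Tg26 mice. The 4 groups overlapped, and the interaction was 0.12 (SE 0.21, 95% interval -0.33 to 0.57). RNA does not report the activity of the kinase. Atf4, a factor translated when eIF2alpha is phosphorylated, gave 0.01 (SE 0.14, 95% interval -0.30 to 0.32). Epas1, Srebf1 and Smad2 gave -0.03 (95% interval -0.57 to 0.51), -0.10 (-0.99 to 0.79) and -0.08 (-0.31 to 0.16). None of these intervals excludes 0, and those of Epas1 and Srebf1 are wide.

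Stat3 gave -0.50 (SE 0.36, 95% interval -1.30 to 0.30) and Gli1 gave -0.79 (SE 0.61, 95% interval -2.12 to 0.53), both wide. Stat3 measured 73.2, 113 and 133 CPM in WT, 71.5, 68.5 and 128 in C16-treated WT, 185, 132 and 163 in Tg26 and 81.0, 98.4 and 105 in C16-treated Tg26 mice. For Stat3 the Tg26 mice lay above both C16-treated groups and overlapped the WT mice, while for Gli1, a hedgehog effector at low level, the Tg26 mice at 1.62 to 2.67 CPM lay above the others at 0.0935 to 0.828 CPM. Creb1, a factor activated by cAMP, had an interaction of -0.58 (SE 0.22, 95% interval -1.06 to -0.10). Creb1 measured 19.4, 17.4 and 22.9 CPM in WT, 26.4, 31.2 and 22.2 in C16-treated WT, 29.6, 32.5 and 25.6 in Tg26 and 29.9, 22 and 26.6 in C16-treated Tg26 mice. Its C16 effect was 0.42 in WT mice and -0.16 in Tg26 mice, and only the WT mice and the Tg26 mice were free of overlap with each other. Foxo1 gave 0.42 (SE 0.22, 95% interval -0.05 to 0.90).

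Pdgfrb, the receptor that marks pericytes and fibroblasts (chr18:61045150-61085061), had the largest interaction of these genes. Pdgfrb measured 20.2, 21.1 and 21.4 CPM in WT, 25.4, 17.1 and 19.3 in C16-treated WT, 90.8, 58.6 and 57.2 in Tg26 and 30.4, 28.3 and 41.4 in C16-treated Tg26 mice. The Tg26 mice lay above the other 9, C16 in WT mice gave -0.02, and the interaction was -1.03 (SE 0.29, 95% interval -1.66 to -0.40), with an edgeR adjusted p of 0.278. Its ligand gene Pdgfd gave -0.01 (SE 0.21, 95% interval -0.47 to 0.45).

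**Figure D3:**
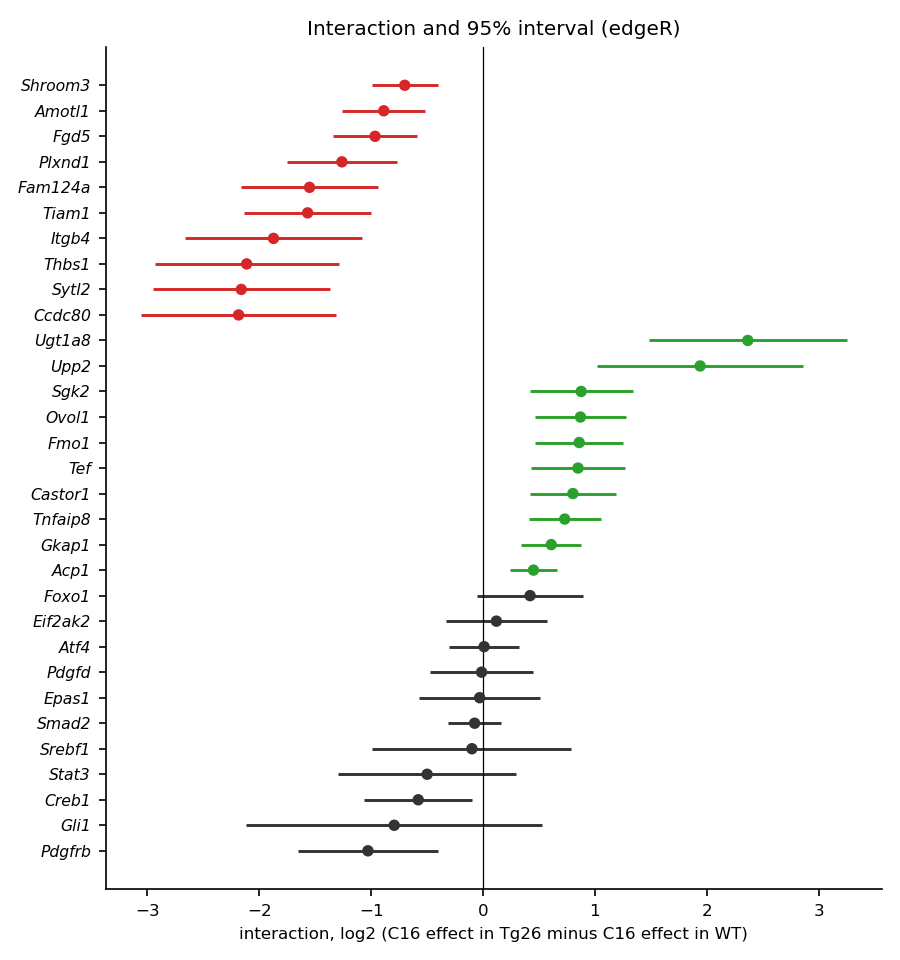
Interaction on the log2 scale (points) with its 95% interval (lines) from edgeR for the leading genes with a negative (red) and a positive (green) value and for the genes named by the study (dark grey). The intervals of the leading genes exclude 0 because they were picked by p; of the study genes, those of Pdgfrb and Creb1 do so.

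Gene lists are described by their counts and medians, beside those of all genes, whose median interaction was 0.01. No member of any list was called for the interaction by edgeR. Of all genes, 7.95% had a negative and 4.77% a positive interaction with an unadjusted p under 0.05. C16 in Tg26 mice called 2.66% of all genes lower and 0.758% higher. Macrophage markers had the lowest median. All 24 had a negative interaction, from -2.10 to -0.88 with a median of -1.38, and 21 (87.5%) had an unadjusted p under 0.05, against 7.95% of all genes. The median C16 effect was -1.18 in Tg26 mice, where 6 of 24 were called lower, against 2.66% of all genes. In WT mice it was 0.23, with 22 of 24 above 0. Summed over the markers and not TMM-scaled, the level was 131 to 167 CPM in WT mice and 169 to 211 CPM in C16-treated WT mice. It was 1086 to 2018 CPM in Tg26 mice and 390 to 865 CPM in C16-treated Tg26 mice. After TMM scaling the 2 WT groups overlapped. The mean log2 level of the markers, relative to the 12 libraries, was -1.15 in WT replicate 1 and -1.21 in C16-treated WT replicate 2. Adgre1, which encodes the F4/80 antigen, gave -2.10 (SE 0.56, 95% interval -3.32 to -0.87). Adgre1 measured 2.01, 1.98 and 1.49 CPM in WT, 2.98, 4.06 and 2.38 in C16-treated WT, 26.5, 13 and 9.06 in Tg26 and 4.23, 6.12 and 8.96 in C16-treated Tg26 mice. Tyrobp, an adaptor of myeloid receptors, gave -1.62 (SE 0.39, 95% interval -2.48 to -0.76), and Mpeg1, a perforin of macrophages, gave -1.28 (SE 0.36, 95% interval -2.07 to -0.50). In whole tissue, fewer macrophages and less RNA per macrophage cannot be told apart. Without Tg26 replicate 1 the median was -1.06, and it was negative under all 22 alternatives.

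Csf1, a growth factor of macrophages, gave -1.29 (SE 0.38, 95% interval -2.11 to -0.46). Ccl2, the main chemokine for monocytes, gave -3.79 (SE 1.04, 95% interval -6.06 to -1.51). Ccl2 measured 0.0458, 0 and 0.0963 CPM in WT, 0.419, 0.105 and 0.187 in C16-treated WT, 11.3, 8.73 and 4.79 in Tg26 and 1.83, 2.65 and 4.26 in C16-treated Tg26 mice. In WT mice it rested on 0 to 2 counts per library, so the interaction depends on the prior count of the fit. Il34, the second ligand of the CSF1 receptor, gave -1.18 (SE 0.30, 95% interval -1.83 to -0.52), with the Tg26 and C16-treated WT mice overlapping. The C16 effect on Il34 was 0.86 in WT mice and -0.31 in Tg26 mice. Of the 35 chemokines and receptors tested, 25 were negative and 10 positive, from -3.79 to 0.99, and 6 of the negative ones (17.14% of the list) had an unadjusted p under 0.05. The median was -0.43, and it was -0.09 without Tg26 replicate 1, -0.72 without C16-treated Tg26 replicate 2 and -0.87 with a stricter filter on low levels (at least 10 CPM in 3 libraries). Ccl21a has near-identical copies, and its value is uncertain. Of 29 NF-kB subunits and targets, 27 had a negative interaction. Of these, 12 (41.38% of the list) had an unadjusted p under 0.05, as did 1 positive gene. The median moved from -0.69 to -0.34 without Tg26 replicate 1.

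The size of the values of antigen presentation and interferon genes rested on a single mouse. The 9 MHC class II genes had a median of -0.94 and the 15 class I and peptide-loading genes -0.53, and without Tg26 replicate 1 these were -0.51 and -0.13. Cd74, the invariant chain, measured 124 to 164 CPM in WT mice, 143 to 199 CPM in C16-treated WT mice, 477 to 1137 CPM in Tg26 mice and 310 to 629 CPM in C16-treated Tg26 mice. The 2 Tg26 groups overlapped, and the interaction was -0.96 (SE 0.44, 95% interval -1.91 to -0.01). Of 35 interferon-stimulated genes, 34 were negative with a median of -0.72, but 8 (22.86%) had an unadjusted p under 0.05, and the median was -0.21 without Tg26 replicate 1. Ifih1, which encodes the RNA sensor MDA5, gave -0.95 (SE 0.34, 95% interval -1.69 to -0.21), and Oas2, a synthase activated by double-stranded RNA, gave -2.21 (SE 0.79, 95% interval -3.93 to -0.48). Over 24 genes of PKR, other RNA sensors and eIF2alpha kinases the median was -0.01, and -0.06 to 0.02 without 1 library, with 11 positive and 13 negative. Among 34 targets of the integrated stress response it was -0.24, -0.05 without Tg26 replicate 1 and -0.41 without Tg26 replicate 2. Atf3 gave -1.17 (SE 0.47, 95% interval -2.20 to -0.14).

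Matrix and fibroblast genes were negative as well. Of 30 collagens and fibrillar matrix genes, 28 were negative, 18 of them with an unadjusted p under 0.05 (60% against 7.95% of all genes), and the median was -1.22. C16 gave a median of -1.50 in Tg26 mice, with 9 of 30 called lower against 2.66% of all genes, and -0.12 in WT mice. The median interaction was -0.67 without Tg26 replicate 1 and -1.53 without Tg26 replicate 3. Col18a1, the collagen XVIII of basement membranes, gave -0.82 (SE 0.23, 95% interval -1.33 to -0.30). Col18a1 measured 122, 126 and 125 CPM in WT, 117, 119 and 132 in C16-treated WT, 432, 301 and 272 in Tg26 and 152, 201 and 209.6 in C16-treated Tg26 mice. The Tg26 mice lay above the other 9, and the 2 WT groups overlapped. Of 19 fibroblast and myofibroblast markers, all were negative, 14 (73.68%) with an unadjusted p under 0.05, against 7.95% of all genes. C16 called 12 of the 19 lower in Tg26 mice, against 2.66% of all genes. The median interaction of these markers was -0.95, and -0.80 without Tg26 replicate 1. Gsn, the actin-severing gelsolin, gave -0.73 (SE 0.15, 95% interval -1.05 to -0.40) and Mfap4, a microfibril protein, gave -2.40 (SE 0.52, 95% interval -3.54 to -1.26). Mmp2, the gelatinase that degrades collagen IV, gave -1.72 (SE 0.51, 95% interval -2.83 to -0.62), and its inhibitor Timp2 -0.92 (SE 0.24, 95% interval -1.43 to -0.40). Adamts1, a protease of proteoglycans, gave -1.36 (SE 0.28, 95% interval -1.97 to -0.74).

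Over 25 genes of the TGF-beta pathway the median was -0.27, and -0.15 without C16-treated WT replicate 3, while 10 (40%) had a negative interaction with an unadjusted p under 0.05. Tgfb1 itself gave -1.26 (SE 0.39, 95% interval -2.11 to -0.42). Of 32 hedgehog, Notch and Wnt genes, 25 were negative, 8 of them (25% of the list) with an unadjusted p under 0.05, against 7.95% of all genes. Axin2, a direct Wnt target, gave -1.65 (SE 0.45, 95% interval -2.63 to -0.66), with C16-treated Tg26 mice at 0.610 to 1.04 CPM and WT mice at 0.718 to 0.867 CPM. Notch3 gave -0.90 (SE 0.25, 95% interval -1.45 to -0.35) and its ligand Jag1 -0.81 (SE 0.24, 95% interval -1.32 to -0.29).

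Of 28 genes of tubular injury and repair, 27 were negative and 13 (46.43%) had an unadjusted p under 0.05. The median of -1.12 was -0.57 without Tg26 replicate 1. Dcdc2a, a doublecortin protein of cilia, gave -1.98 (SE 0.52, 95% interval -3.12 to -0.83). Over 26 chaperones the median was -0.27, and it was 0.003 without Tg26 replicate 2, -0.53 without WT replicate 1 and -0.62 with limma-voom, so its sign and size rested on single libraries. Among them the small heat shock proteins Hspb8 and Hspb1 gave -2.11 (SE 0.50, 95% interval -3.21 to -1.01) and -1.57 (SE 0.47, 95% interval -2.60 to -0.55). Hspb8 measured 3.16, 3.50 and 2.84 CPM in WT, 3.73, 3.48 and 3.74 in C16-treated WT, 52.2, 22.7 and 18.8 in Tg26 and 5.73, 8.32 and 10.9 in C16-treated Tg26 mice. Both the Tg26 mice and the C16-treated Tg26 mice lay above the WT mice of either treatment. Of 26 immediate early genes, 25 were negative, with a median of -0.75. Of these, 10 (38.46% of the list) had an unadjusted p under 0.05. Fosb varied from 0.0467 to 4.84 CPM within C16-treated WT mice alone. Over 35 genes of DNA replication and mitosis the median was -0.91, and it was -0.42 without Tg26 replicate 1 and -0.23 with the stricter filter. Of these genes 4 (11.43%) were negative with an unadjusted p under 0.05, against 7.95% of all genes. Mki67, which marks cycling cells, gave -1.67 (SE 0.65, 95% interval -3.10 to -0.24).

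Of 18 endothelial markers, 17 were negative. They ran from -1.13 to 0.45 with a median of -0.31, and 8 (44.44%) had an unadjusted p under 0.05. Cdh5, the cadherin of endothelial junctions, gave -0.59 (SE 0.17, 95% interval -0.95 to -0.22). Cdh5 measured 26.4, 28.4 and 27.2 CPM in WT, 32.0, 31.2 and 35.5 in C16-treated WT, 48.9, 40.3 and 35.9 in Tg26 and 31.1, 31.5 and 37.5 in C16-treated Tg26 mice. WT mice and C16-treated WT mice did not overlap, nor did WT and Tg26 mice. The median was -0.26 without Tg26 replicate 1. Among 22 podocyte markers the median was -0.13, and 14 were negative, 4 of them (18.18% of the list) with an unadjusted p under 0.05, against 7.95% of all genes. The median was -0.07 without C16-treated Tg26 replicate 1, -0.20 without WT replicate 3 and -0.06 with limma-voom. Nes, an intermediate filament of podocytes and other cells, gave -1.23 (SE 0.38, 95% interval -2.07 to -0.39), and Kirrel, which encodes NEPH1 of the slit diaphragm, -1.12 (SE 0.29, 95% interval -1.76 to -0.48).

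**Figure D4:**
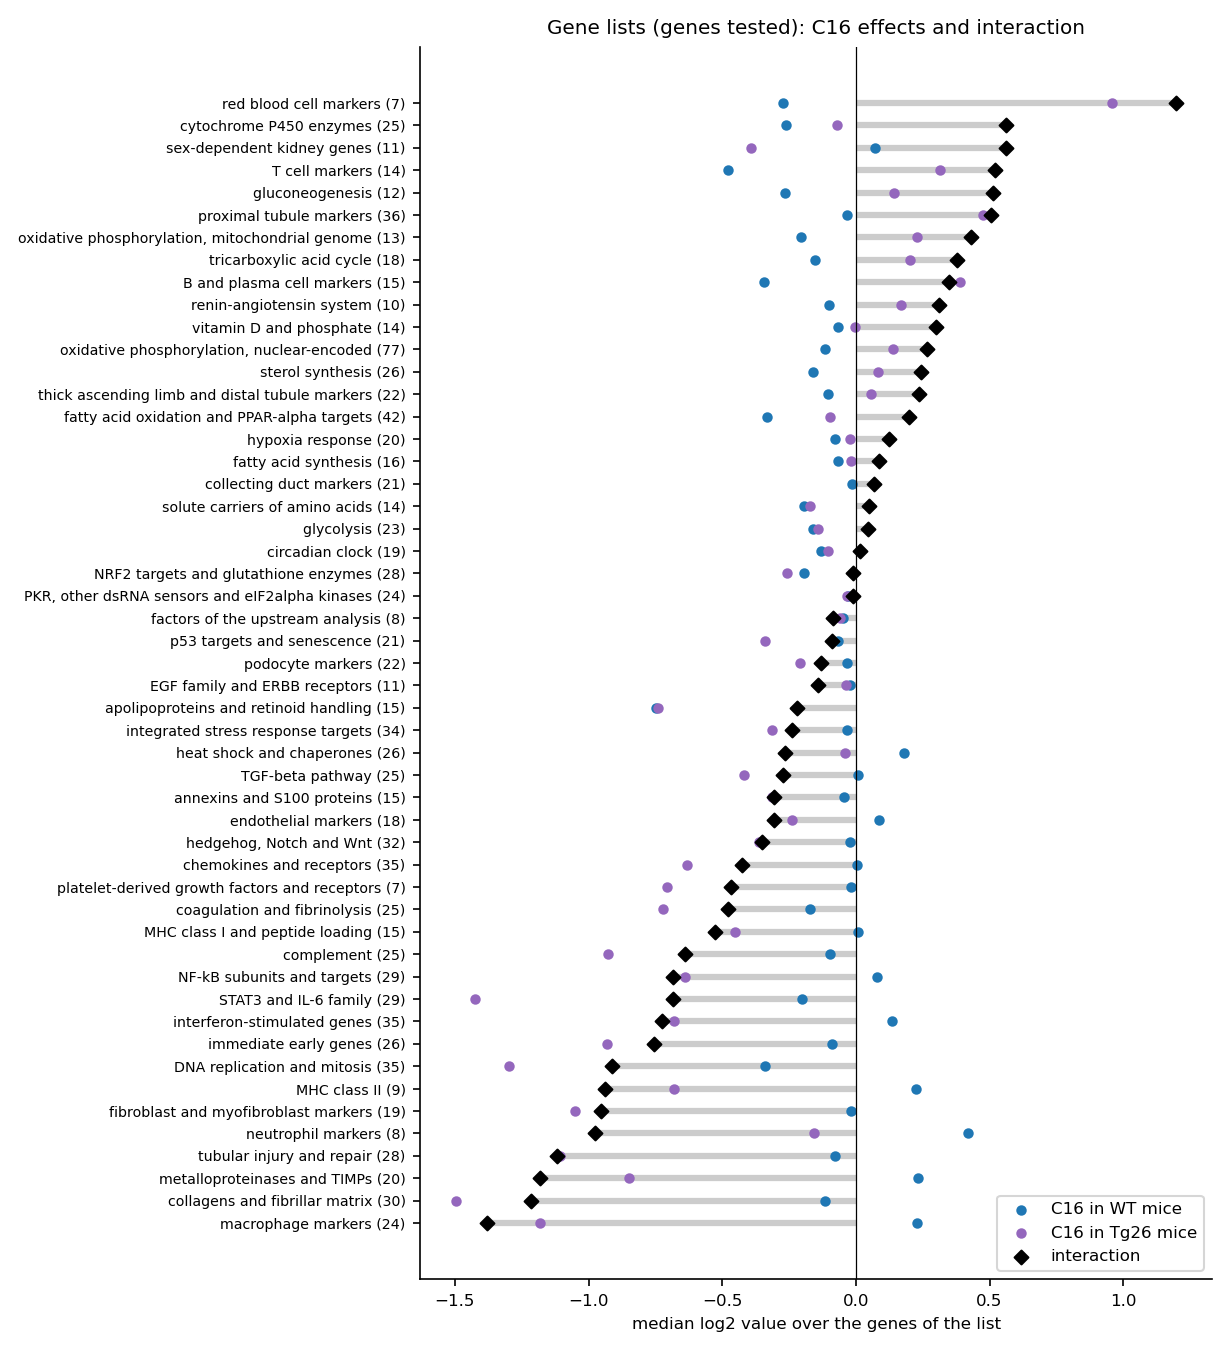
Median over each gene list (genes tested in brackets) of the log2 change with C16 in WT mice (blue) and Tg26 mice (purple), and of the interaction (black diamonds, grey bars from 0). Macrophage markers are lowest at -1.38 and collagens next at -1.22; mitochondrial, gluconeogenic and proximal tubule genes are positive, at 0.27 to 0.51.

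Proximal tubule and mitochondrial genes had mostly positive interactions that were small in size. Of 36 proximal tubule markers, 34 were positive with a median of 0.51, and 8 (22.22%) had an unadjusted p under 0.05, against 4.77% of all genes. C16 gave a median of 0.47 in Tg26 mice and -0.03 in WT mice. Of the 36, 2 were called higher in Tg26 mice, against 0.758% of all genes. Slc6a19, the apical transporter of neutral amino acids, gave 0.99 (SE 0.30, 95% interval 0.32 to 1.65). Slc6a19 measured 435, 583 and 518 CPM in WT, 271, 484 and 371 in C16-treated WT, 204, 298 and 283 in Tg26 and 317, 439 and 384 in C16-treated Tg26 mice. The Tg26 mice lay below the WT and the C16-treated Tg26 mice and overlapped the C16-treated WT mice. Cubn, the endocytic receptor cubilin, gave 0.57 (SE 0.20, 95% interval 0.13 to 1.02), and its Tg26 mice lay below the other 9. The summed level of the markers, not TMM-scaled, was 37700 to 57790 CPM in Tg26 mice and 62080 to 74980 CPM in the other 3 groups. The median was 0.28 without Tg26 replicate 1, and whether the share of tubule RNA or the level per cell differed cannot be told apart. Of 22 thick ascending limb and distal tubule markers, 15 were positive and 7 negative, with a median of 0.24. That median was 0.08 without Tg26 replicate 1 and 0.04 with library sizes not rescaled. At unadjusted p under 0.05, 3 were positive and 1 negative. The negative one, Cldn19, gave -0.98 (SE 0.26, 95% interval -1.54 to -0.43).

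All 77 nuclear genes of oxidative phosphorylation had a positive interaction, from 0.01 to 0.56 with a median of 0.27, and 19 (24.68%) had an unadjusted p under 0.05. With library sizes not rescaled the median was 0.07, where that of all genes was -0.19. C16 gave a median of 0.14 in Tg26 mice and -0.11 in WT mice. Ndufs4, a subunit of complex I, gave 0.35 (SE 0.11, 95% interval 0.11 to 0.60). Ndufs4 measured 97.3, 108 and 111 CPM in WT, 91.6, 88.5 and 85.2 in C16-treated WT, 81.1, 85.5 and 81.1 in Tg26 and 92.4, 88.6 and 85.1 in C16-treated Tg26 mice. WT mice were highest without overlap, and the other 3 groups lay between 81.1 and 92.4 CPM. Cox5a, of complex IV, gave 0.36 (SE 0.12, 95% interval 0.11 to 0.62).

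The 13 protein genes of the mitochondrial genome followed, all positive, with a median of 0.43 and 5 at an unadjusted p under 0.05. C16 gave a median of -0.20 in WT mice, where all 13 were negative, and 0.23 in Tg26 mice. mt-Cytb, of complex III, gave 0.55 (SE 0.23, 95% interval 0.05 to 1.04). mt-Cytb measured 17360, 16960 and 17520 CPM in WT, 14680, 15940 and 14370 in C16-treated WT, 8213, 11750 and 11720 in Tg26 and 14510, 13370 and 12280 in C16-treated Tg26 mice. Untreated WT mice were highest, untreated Tg26 mice lowest, and both C16-treated groups lay between them. Reads of mt-Nd4l and some others can be split with nuclear copies, so its 0.65 (SE 0.20, 95% interval 0.22 to 1.09) is less certain. Without Tg26 replicate 1 the median was 0.31. In that library 6.51% of counts came from these genes and their neighbors on the mitochondrial genome, against 7.63% to 9.57% in the other 11.

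All 18 genes of the tricarboxylic acid cycle were positive, with a median of 0.38 and 4 at an unadjusted p under 0.05, and all 12 genes of gluconeogenesis, with a median of 0.51 and 4. Without Tg26 replicate 1 these medians were 0.23 and 0.34, and with library sizes not rescaled 0.19 and 0.31. The median C16 effect on the tricarboxylic acid cycle was 0.20 in Tg26 mice and -0.15 in WT mice. On gluconeogenesis it was 0.14 in Tg26 mice and -0.27 in WT mice. Slc37a4, the glucose 6-phosphate carrier, gave 0.74 (SE 0.22, 95% interval 0.25 to 1.23), and Fbp1, which makes fructose 6-phosphate, gave 0.57 (SE 0.18, 95% interval 0.19 to 0.96). Fbp1 measured 1236, 1415 and 1310 CPM in WT, 1093, 1261 and 1186 in C16-treated WT, 736, 953 and 961 in Tg26 and 1249, 1151 and 1122 in C16-treated Tg26 mice. The Tg26 mice lay below the other 9. For fatty acid oxidation the median was 0.20, 0.04 without Tg26 replicate 1 and 0.41 without Tg26 replicate 3. Of 42 genes, 2 had an unadjusted p under 0.05 (4.76%), close to the 4.77% of all genes. The median C16 effect on this list was negative in both genotypes, -0.10 in Tg26 mice and -0.33 in WT mice. Sterol synthesis had a median of 0.24, which was 0.12 without Tg26 replicate 3 and 0.05 with library sizes not rescaled. Its median C16 effect was 0.08 in Tg26 mice and -0.16 in WT mice. Nsdhl, a sterol dehydrogenase, had an interaction of 0.59 (SE 0.17, 95% interval 0.22 to 0.96). Glycolysis, fatty acid synthesis, the hypoxia list and collecting duct markers had medians of 0.04 to 0.12, and all 4 turned negative when library sizes were not rescaled. They lay above the median of all genes under that setting, -0.19. Without 1 library these 4 medians ran from -0.02 to 0.21, both for the collecting duct, without Tg26 replicates 1 and 3.

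**Figure D5:**
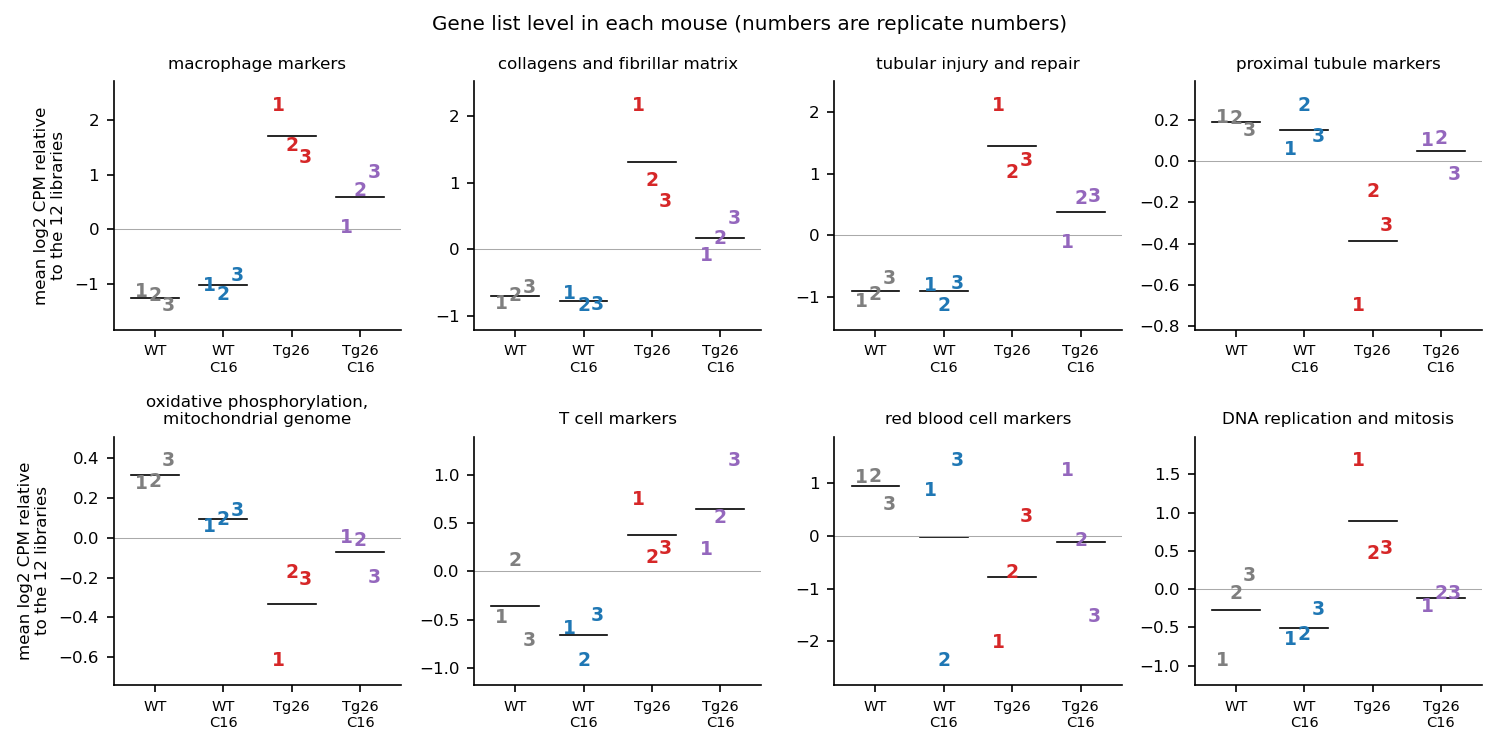
Level of 8 gene lists in each mouse, as log2 CPM minus the mean of that gene over all 12 mice, averaged over the list; the numbers are replicate numbers and the lines group means. Tg26 replicate 1 is the extreme mouse for macrophage markers at 2.27, collagens at 2.16 and proximal tubule markers at -0.70; red blood cell markers range from -2.37 to 1.42 within C16-treated WT mice.

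T cell markers did not follow the macrophages, and B and plasma cell markers were of both signs. Of 18 T cell markers, 14 were tested, 12 with a positive interaction, and the median was 0.52. Cd2 and Trbc1 had an unadjusted p under 0.05. Cd2 measured 0.366, 0.422 and 0.433 CPM in WT, 0.140, 0.0527 and 0.140 in C16-treated WT, 0.806, 0.550 and 0.810 in Tg26 and 0.650, 0.993 and 1.70 in C16-treated Tg26 mice. The C16-treated WT mice were lowest without overlap and the interaction was 2.44 (SE 0.66, 95% interval 0.99 to 3.89), at a level of under 2 CPM. Leaving out WT replicate 2, the WT mouse with the highest score, gave a median of 0.27, and leaving out WT replicate 3 gave 0.83. B and plasma cell markers had 8 positive and 7 negative values and varied within groups. Their median was 0.35, and -0.73 with the stricter filter. The 2 with an unadjusted p under 0.05 (13.33%, against 12.7% of all genes) were both negative. These were Xbp1 at -0.69 (SE 0.25) and Sdc1 at -0.74 (SE 0.31). Ms4a1, which encodes CD20, measured 0.229, 1.86 and 0.771 CPM in the 3 WT mice. Red blood cell markers had a median of 1.20, with 0 of 7 at an unadjusted p under 0.05. It was -0.05 without C16-treated Tg26 replicate 1 and 2.45 without Tg26 replicate 3, so single libraries set its sign. Hba-a1 has a near-identical copy.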

How the data were processed

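Per the labels, outer kidney cortex RNA of 12 mice was made into stranded mRNA libraries. Reads were trimmed (Cutadapt 1.18) and mapped by the authors to mm10 (STAR 2.7.0f), and RSEM (1.3.1) assigned them to Ensembl 96 genes. The deposited expected counts were used without further rounding, since all were whole, and had not been scaled by the authors. edgeR's filterByExpr, with a minimum count of 10 and groups of 3, left 16094 of 55450 genes. Library sizes were scaled by TMM, and the quasi-likelihood test of edgeR (4.0.16, R 4.3.3) was fitted over the 4 groups without covariates. Adjusted p are Benjamini-Hochberg values over all genes tested. CPM of single genes follow TMM scaling, and CPM summed over several genes do not. The test was run on simulated data first. Levels are compared within a gene only.

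Named genes were 10 of each direction by smallest p (mean of at least 1 CPM, no Y-linked, predicted or immunoglobulin genes), since none was called, the study's factors, and in each of 53 gene lists the 3 members with the smallest p, of which the text gives a part and some are not reported here. The lists, the naming rule and this comparison were chosen with earlier results of these data known. Alternatives were DESeq2 (1.42.0), limma-voom (3.58.1) with quality weights, other scalings and filters, the replicate number as a block, the clock score as a covariate, and leaving out each library. No library duplicated another. Promoters came from RefSeq, and figures from matplotlib (3.10.9).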

Additional observations from a re-analysis of the deposited data

How the results depend on the processing

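With edgeR, 0 genes were called for the interaction in either direction without any 1 of the 12 libraries and under other scalings, the stricter filter, the clock covariate and the replicate block. DESeq2 called 26 higher and 132 lower, limma-voom 2 lower, and the fit without a filter 1 higher (Ugt1a8) and 5 lower (Sytl2, Thbs1, Gm10401, Ccdc80 and Plxnd1); the cause was not tested. The 550 genes called with C16 in Tg26 mice became 1959 with DESeq2 and 1104 without a filter, and 0 to 1469 without 1 library. In WT mice the 0 called became 34 with DESeq2, 43 with limma-voom and 2 without a filter (Eif4ebp3 and Saa4).

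Replicate numbers did not pair the mice: deviations of the 18 same-numbered pairs correlated at -0.31 to 0.28, with 7 over 0.1, and 2 of 12 libraries correlated best with their own number. With the replicate block, 0 genes were called for the interaction and 0 with C16 in Tg26 mice. A covariate of Y-linked genes was not run, as all 12 libraries held them. With 3 mice a group, interactions under about 0.56 on the log2 scale were mostly within their interval.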

Other observations

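In coagulation and fibrinolysis, Plg, which encodes plasminogen, had an interaction of 2.64 (SE 0.82) on the log2 scale. Plg lay at 1.54 to 2.38 CPM in WT mice, 0.158 to 0.745 CPM in C16-treated WT mice, 0.147 to 0.992 CPM in Tg26 mice and 0.963 to 1.22 CPM in C16-treated Tg26 mice. In glycolysis, Hk2, an inducible hexokinase, gave -2.41 (SE 1.04). Apolipoproteins held named members of opposite sign: Apoe gave -1.0 (SE 0.28) and Apom 0.78 (SE 0.33). Apoe measured 61.0 to 68.4 CPM in C16-treated WT mice, 74.6 to 90.2 CPM in WT mice, 160 to 265 CPM in C16-treated Tg26 mice and 437 to 711 CPM in Tg26 mice, with no overlap between any of the 4 groups. None of these genes passed the test of the interaction with edgeR, and the differences between them were not tested.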
